A study of Mus musculus with 4 samples.

Results

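Collagen chain genes were compared between fibroblasts, reprogrammed cells and embryonic stem cells with 81 probes of 40 genes, out of 41174 gene probes on a mouse whole-genome array. The probes are all those whose gene name on the array has the form of a collagen chain (Col, a type number, a, a chain number), whatever their signal. They were described in classes: fibrillar chains, the type IV chains of basement membranes, and all other types. Of these 81 probes, 57 probes of 36 genes could be tested. Another 19 probes were not well above background on all arrays of any RNA, and 5 were bright enough but had a spot that the scanner software marked as an outlier on an array.

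Collagens are the main structural proteins of the extracellular matrix. Their chains wind around each other into a helix in which glycine recurs at a fixed spacing, so that the coding sequence carries a GGN codon (any glycine codon) again and again. Fibrillar collagens (types I, II, III, V, XI, XXIV and XXVII) build the fibrils of skin, bone and cartilage. Some of them, such as type I, are made in bulk by fibroblasts. Type IV collagen forms the sheet-like network of basement membranes and is one of the first collagens laid down in the early embryo. The other types decorate fibrils, form beaded filaments, anchor epithelia, or sit in the plasma membrane.

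RNA of the mouse embryonic stem (ES) cell line CGR8.8 was labelled green (Cy3) on 4 arrays with 2 colours. Red (Cy5) was RNA of mouse embryonic fibroblasts (MEFs), taken after several passages, on 2 arrays, and on the other 2 it was RNA of a clone of induced pluripotent stem (iPS) cells, taken 30 days after transduction. ES and iPS cells were cultured in 1000 IU/ml of leukemia inhibitory factor (LIF), and 1 µg of each RNA was labelled. On the MEF arrays the treatment label of the red channel speaks of an iPS cell clone. The MEF group was taken from the labels of cell type and source name. The labels name no mouse strain, transduced factors or feeder cells. They call the arrays of a group biological replicates but do not say whether these came from separate cultures, so p-values measure only how far these samples spread, and that spread may be technical. The iPS cells are 1 clone, no array had the dyes swapped, and all arrays lay on 1 slide.

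The helix repeat itself was visible in the array design. A run of at least 5 GGN triplets, each 9 bases after the last, was found in 3 of the 81 collagen probes and in 0 of the other gene probes (3 of 41174, 0.00729%). The 3 probes are shown because they read the part that makes a chain a collagen, with the GGN triplets of the run in capitals, 5′ to 3′ as the array file gives them.
Col11a2 probe A_52_P563285: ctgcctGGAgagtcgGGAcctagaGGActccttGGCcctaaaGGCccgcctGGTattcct
Col5a1 probe A_52_P237371: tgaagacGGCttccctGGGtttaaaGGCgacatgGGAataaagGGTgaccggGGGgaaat
Col5a3 probe A_52_P503796: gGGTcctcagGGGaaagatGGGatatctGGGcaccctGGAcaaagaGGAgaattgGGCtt
The runs hold 6, 6 and 7 triplets. Only the Col5a1 probe among them was called in any comparison, while the Col11a2 probe was tested and not called and the Col5a3 probe was not well above background in any of the RNAs.

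Another pair is shown because it measures the same stretch of a gene with different results. The 2 tested probes of Col2a1, the chain of cartilage fibrils, lie 20 bases apart on mm8 (chr15:97804088-97804147 and chr15:97804108-97804167, minus strand) and share 40 bases, given in capitals. Its remaining probe, A_52_P564148, was not well above background in any RNA.
Col2a1 probe A_52_P216436: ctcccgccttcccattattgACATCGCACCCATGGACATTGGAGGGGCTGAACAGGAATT
Col2a1 probe A_51_P317141: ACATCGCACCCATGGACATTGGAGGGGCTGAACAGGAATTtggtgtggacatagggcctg
Their values are given with the fibrillar chains.

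Detection already set the RNAs apart. On all of its channels, ES RNA lay well above background for 47 of the 81 collagen probes (58.0%), MEF RNA for 58 (71.6%) and iPS RNA for 35 (43.2%). Over all gene probes the shares were 60.2%, 59.6% and 60.3%. All 3 RNAs were well above background for 30 collagen probes, MEF RNA alone for 12, and ES and MEF RNA but not iPS RNA for 14. ES and iPS RNA but not MEF RNA were well above background for 2 probes. The shares of all gene probes with these overlaps were not counted, so the overlaps are not read as particular to collagens.

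Values below are log2 ratios of red over green, that is of MEFs or iPS cells over ES cells, on the first and second array of a group. A probe is called higher or lower, and said to have risen or fallen, where limma's Benjamini-Hochberg adjusted p over all 24874 tested gene probes was under 0.05 and the ratio at least 2-fold. In MEFs 29 of the 57 tested collagen probes rose over ES cells and 4 fell, with a median of 1.07. Over all tested gene probes 12.8% rose and 12.4% fell, with a median of -0.01. In iPS cells 4 collagen probes rose over ES cells and 19 fell (median -0.43), where 8% of all probes rose and 10.7% fell (median -0.01). Between iPS cells and MEFs, 32 collagen probes were lower in iPS cells and 4 were higher (median -1.98), where 17.7% and 15.4% of all probes were (median 0.01). The adjusted p of the called collagen probes lay between 3.74e-09 and 1.17e-06 in MEFs, between 3.31e-09 and 5.64e-06 in iPS cells and between 2.01e-09 and 1.3e-05 for iPS cells against MEFs.

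These counts describe the probes that passed the filter on dim probes, and a probe that passed through MEF RNA alone could only stand higher there. Of 27 collagen probes that were well above background on every array in red and green alike, 17 rose and 4 fell in MEFs, where 2521 and 2714 of 19468 gene probes did. In iPS cells 2 of the 27 rose and 13 fell, where 1529 and 2312 of 19468 did. The MEF counts turn on how background was corrected: with the correction fitted over all spots, marked ones included, limma called 0 collagen probes in MEFs (11 higher and 2 lower at an unadjusted p under 0.05) and 0 of all 24874 probes. On that fit the ratio of Col5a2 on the first MEF array was 1.53 in place of 5.56, and without that array 29 rose and 4 fell.

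In both comparisons with ES cells at once, 17 probes of 13 genes stood higher in MEFs and lower in iPS cells, so that ES cells lay between the others. The share of all tested gene probes with such joint calls was not counted, so the pattern is not read as particular to collagens. A further 11 rose in MEFs and were not called in iPS cells, 4 fell in MEFs and were not called in iPS cells, 3 rose and 2 fell in iPS cells without a call in MEFs, and 19 were called in neither. Only Col5a3 rose in both. Every tested collagen probe kept its MEF arrays apart from its iPS arrays: both MEF arrays lay above both iPS arrays for 46 probes and below them for 11. How many of all tested gene probes did so was not counted, so this is not read as particular to collagens.

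The type I chains Col1a1 and Col1a2, which together form the main fibril of skin and bone, gave the largest differences between iPS cells and MEFs. The 3′ probe of Col1a1 (chr11:94767851-94767910, mm8) read 4.32 and 4.32 in MEFs and -5.73 and -5.80 in iPS cells. The fit gave 4.32 ± 0.048 (SE) in MEFs, -5.77 ± 0.048 in iPS cells and -10.09 ± 0.067 for iPS cells over MEFs. A second Col1a1 probe, 1023 bases upstream, read 3.50 and 3.47 in MEFs and -3.0 and -2.97 in iPS cells. The third, 13798 bases upstream, read 3.27 and 3.45 in MEFs and -0.56 and -0.42 in iPS cells, where it was not well above background and not called. All 3 rose in MEFs, while the distance from ES to iPS cells differed from probe to probe. The 3′ probe of Col1a2 (chr6:4490619-4490678) read 4.75 and 4.71 in MEFs and -4.57 and -4.58 in iPS cells, and its other probe, 26846 bases upstream, was not called in any comparison (0.59 and 0.48, then -0.01 and -0.16).

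Col3a1, which builds fibrils of soft tissue with type I, and Col5a2, a type V chain of the fibril core, are neighbours on chromosome 1, with their nearest probes 27973 bases apart and on opposite strands. The 3′ probe of Col3a1 (chr1:45293290-45293349) read 4.99 and 4.94 in MEFs and -3.17 and -3.0 in iPS cells. iPS RNA was not well above background there. The upstream Col3a1 probe, not well above background in ES RNA, read 1.80 and 1.97 in MEFs (at least 3.69-fold higher) and 0.11 and -0.30 in iPS cells. This upstream probe passed the filter on dim probes through MEF RNA alone and could only stand higher there. The remaining Col3a1 probe was not well above background in any RNA. Col5a2 (chr1:45321322-45321381) had the largest rise of any collagen probe in MEFs, 5.56 and 5.61. In iPS cells it read -1.07 and -1.19, well above background on both arrays, and fell by 1.13 ± 0.052 on the log2 scale. With median centring in place of loess it stood at -0.98 in iPS cells, just short of 2-fold.

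The other type V chains went different ways. The Col5a1 probe printed above read 2.09 and 2.18 in MEFs, a rise, and -0.42 and -0.40 in iPS cells, not called. The second Col5a1 probe was left out of the test for an outlier mark of its background. With such marks disregarded it read 2.80 and 2.77 in MEFs and -2.85 and -2.91 in iPS cells and was called in both. Col5a3 (chr9:20520550-20520609), a type V chain of narrower tissue range, read 3.59 and 3.69 in MEFs and 1.21 and 1.1 in iPS cells. It was the only fibrillar chain to rise in iPS cells over ES cells (1.16 ± 0.054, adjusted p = 9.58e-07 in the limma fit), and it was still lower in iPS cells than in MEFs (-2.48 ± 0.076).

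Col2a1 and Col11a1, chains of cartilage fibrils, also rose in MEFs and fell in iPS cells. The Col2a1 probe A_51_P317141 read 2.24 and 2.25 in MEFs and -1.80 and -1.87 in iPS cells. Its overlapping partner A_52_P216436 read 1.18 and 1.37 in MEFs and -1.0 and -1.02 in iPS cells. Although they share 40 of their 60 bases, the ratio over ES cells was smaller on the second in both groups, and its call in iPS cells was lost without the second iPS array (-1.0) and with median centring (-0.76). The 3′ probe of Col11a1 read 1.71 and 1.69 in MEFs and -2.89 and -2.88 in iPS cells. Its probe 129066 bases upstream read 0.59 and 0.51, then -0.53 and -0.44, and the one at 158082 bases read 0.08 and 0.13, then -0.27 and -0.25.

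The remaining fibrillar chains showed little. Col11a2 read 0.69 and 0.79 in MEFs and -0.15 and 0.00 in iPS cells on its 3′ probe, and -0.36, -0.16, -0.10 and -0.02 on the GGN probe. Col24a1 read 0.45 and 0.39, then 0.05 and 0.19, on one probe, and -0.05 and -0.01, then 0.00 and 0.17, on the other. Col27a1 read 0.28 and 0.17 in MEFs and -0.46 and -0.31 in iPS cells. Its second bright probe had an outlier mark of its background and, with such marks disregarded, read -1.04 and -1.28 in iPS cells, a fall. Across the 20 tested fibrillar probes 12 rose and 0 fell in MEFs (median 1.79), 1 rose and 8 fell in iPS cells (median -0.45), and 13 were lower and 0 higher in iPS cells than in MEFs (median -2.38). At an unadjusted p under 0.05 and 2-fold these counts were the same. Every tested collagen probe of at least 2-fold was called, so this check could not differ and adds no support.

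Type IV chains also rose in MEFs and fell in iPS cells on most called probes. Col4a1 and Col4a2 form the common type IV molecule and lie head to head on chromosome 8. The promoter windows of the RefSeq table (GRCm38.p6, 250 bases before to 50 after the start) overlap by 78 bases. Col4a1 read 2.46 and 2.45 in MEFs and -1.18 and -1.19 in iPS cells on its 3′ probe, and 2.95 and 3.14, then -0.67 and -0.73, on the other. Col4a2 read 2.24 and 2.36 in MEFs and -1.06 and -1.25 in iPS cells on its 3′ probe, and 2.38 and 2.59, then -1.21 and -1.32, on the other. The 4 probes of this pair thus lay between 2.30 and 3.05 in MEFs and between -0.70 and -1.27 in iPS cells, all well above background in all 3 RNAs. Of the 3 calls in iPS cells, those of Col4a1 (-0.94) and of the 3′ Col4a2 probe (-0.92) fell short of 2-fold with median centring.

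Col4a5 and Col4a6, chains of kidney, skin and smooth muscle basement membranes, are the pair on the X chromosome, and their promoter windows lie 842 bases apart. Col4a5 read 1.90 and 2.20 in MEFs and -1.15 and -1.33 in iPS cells, where it was not well above background. The 3′ probe of Col4a6 read 0.89 and 0.95 in MEFs, short of 2-fold, and -2.58 and -2.81 in iPS cells, where it was not well above background. A Col4a6 probe 1442 bases upstream read 0.40 and 0.50 in MEFs and -0.05 and -0.03 in iPS cells. The 3 probes of Col4a3 were not well above background in any RNA. Its neighbour Col4a4 was not called on either probe (-0.50 and -0.32 in MEFs, 0.02 and 0.03 in iPS cells on one, 0.22 and 0.23, then -0.20 and -0.24, on the other). In all, 5 of 9 tested type IV probes rose in MEFs and 0 fell (median 2.05), and 5 fell and 0 rose in iPS cells (median -1.15). Between iPS cells and MEFs 6 were lower and 0 higher (median -3.45). At an unadjusted p under 0.05 and 2-fold these counts could not change either, as the 2-fold cut set the calls.

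The network chain Col8a1, a matrix protein of vessel walls and the cornea, followed the type I chains. Its probe A_52_P282058 (chr16:57548065-57548124) read 4.95 and 5.04 in MEFs and -4.02 and -4.23 in iPS cells. Its other probe read 4.73 and 4.56 in MEFs and -2.11 and -2.23 in iPS cells, where it was not well above background and at least 4.26-fold lower than in ES cells. Its partner Col8a2 read -0.39 and -0.34 in MEFs and -1.04 and -1.0 in iPS cells, at least 2.02-fold lower there, a call lost with median centring (-0.95). Col7a1, the anchoring fibril that ties epithelium to the matrix below, rose modestly in MEFs (1.39 and 1.39) and fell far in iPS cells (-3.53 and -3.57). Col10a1, the collagen of hypertrophic cartilage, was not called (0.35, 0.24, -0.16 and 0.08).

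Promoters are shown for Col1a2, Col8a1 and Col3a1 because, with Col1a1, these had the largest differences between iPS cells and MEFs. They are the 250 bases before the start from the RefSeq table on GRCm38.p6, read along the gene, with 3 motifs, searched on either strand, in capitals (neighbouring or overlapping matches run together). The motifs were the CCAAT box, the TATAA box, and the GC box, which reads GGGCGG.
Col1a2 chr6:4505368-4505617 (plus strand): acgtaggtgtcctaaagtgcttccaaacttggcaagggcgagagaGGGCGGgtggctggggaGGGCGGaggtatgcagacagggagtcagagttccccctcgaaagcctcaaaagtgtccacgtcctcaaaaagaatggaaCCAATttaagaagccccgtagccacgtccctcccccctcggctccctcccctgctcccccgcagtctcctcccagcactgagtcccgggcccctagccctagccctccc
Col8a1 chr16:57754738-57754987 (minus strand): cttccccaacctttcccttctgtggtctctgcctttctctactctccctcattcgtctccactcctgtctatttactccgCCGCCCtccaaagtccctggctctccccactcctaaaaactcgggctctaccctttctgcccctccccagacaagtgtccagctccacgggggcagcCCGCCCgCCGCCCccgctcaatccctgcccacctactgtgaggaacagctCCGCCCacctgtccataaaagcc
Col3a1 chr1:45311288-45311537 (plus strand): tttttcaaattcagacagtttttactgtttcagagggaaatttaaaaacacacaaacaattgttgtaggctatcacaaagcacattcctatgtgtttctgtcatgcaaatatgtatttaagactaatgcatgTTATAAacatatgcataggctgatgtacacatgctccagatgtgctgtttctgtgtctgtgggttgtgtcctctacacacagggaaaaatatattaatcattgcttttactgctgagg
The promoters held no motif in common: Col1a2 had the CCAAT box and the GC box, Col8a1 had the GC box, and Col3a1 had the TATAA box. The table held 35 promoters of 32 collagen genes. The CCAAT box was in 12 of the 35 (33.8% of all 32851 promoters), the TATAA box in 7 (22.8%) and the GC box in 19 (32.7%). A match describes letters and is no site.

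Type VI chains form the beaded filaments that surround many mesenchymal cells. Col6a1 read 3.65 and 3.82 in MEFs and -0.51 and -0.66 in iPS cells. Col6a2, 107273 bases from it on chromosome 10, read 2.86 and 2.98 in MEFs and -0.35 and -0.12 in iPS cells on its 3′ probe, and 2.13 and 2.15, then -0.51 and -0.54, on the other. Col6a3 read 5.12 and 4.92 in MEFs and -0.29 and -0.46 in iPS cells on its 3′ probe, while its probe 35494 bases upstream was not called (0.60, 0.53, -0.06 and -0.18). Of the 5 tested type VI probes 4 rose in MEFs and 0 fell, and 0 were called in iPS cells over ES cells in either direction. All 5 lay below 0 in iPS cells (median -0.37), short of 2-fold. The adjusted p in the limma fit was under 0.05 there for all but the upstream Col6a3 probe, so the 2-fold cut decided. An unadjusted p under 0.05 with 2-fold therefore gave the same counts. Only for the 3′ probe of Col6a3 was iPS RNA well above background on both arrays. For the others, a missing call does not show that iPS cells kept the level of ES cells. Between iPS cells and MEFs 4 were lower.

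Fibril-associated chains, which coat the surface of fibrils, were mixed. Col12a1 read 4.18 and 4.30 in MEFs and -1.03 and -1.08 in iPS cells on its 3′ probe, where iPS cells were at least 1.74-fold lower, and 3.02 and 2.87, then -0.82 and -0.73, on the other. Col16a1 read 4.13 and 4.29 in MEFs and -1.79 and -1.93 in iPS cells on its 3′ probe, and the probe 43982 bases upstream was not called. Col14a1 read 3.60 and 3.18 in MEFs and 0.30 and 0.16 in iPS cells, with ES RNA well above background on 1 of 4 channels. Col19a1 read 1.03 and 0.92 in MEFs, not called, and was at least 2.13-fold lower in iPS cells than in MEFs. This probe passed the filter on dim probes through MEF RNA alone and could only stand higher there. Of the gene's other probes, 2 were not well above background in any RNA. A further probe was left out of the test for an outlier mark of its background. With such marks disregarded it read -0.37 for iPS cells over MEFs, not called.

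Others of the same class stood low in MEFs. Col22a1, found at tissue junctions, read -2.0 and -1.84 in MEFs and -0.30 and -0.21 in iPS cells on one probe, and -1.53 and -1.37, then -0.93 and -0.97, on the other. Col9a2, a chain of cartilage type IX, read -0.88 and -0.95 in MEFs, short of 2-fold, and 1.31 and 1.24 in iPS cells, a rise of 1.27 ± 0.050. Col9a3, another chain of the same molecule, was not called (-0.39, -0.37, -0.26 and -0.33), and the single probe of Col9a1 could not be tested. Col20a1 was not called in any comparison (0.41 to 0.59 over the 4 arrays).

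The multiplexin Col18a1, a basement membrane proteoglycan whose end is cleaved off as endostatin, fell in MEFs. It read -1.72 and -1.65 in MEFs and -0.59 and -0.58 in iPS cells on its 3′ probe, and -1.44 and -1.32, then -0.40 and -0.47, 245 bases upstream. The second probe lost its call in MEFs with median centring (-0.92). Col15a1, the other multiplexin, read 1.04 and 1.11 in MEFs, at least 1.98-fold higher, and -0.02 and -0.11 in iPS cells. This Col15a1 probe passed the filter on dim probes through MEF RNA alone and could only stand higher there. The other Col15a1 probe was not well above background in any RNA. The opposite signs of the calls for these relatives in MEFs are therefore not read as a contrast.

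Transmembrane collagens, which span the plasma membrane of epithelial and other cells, held 2 of the 4 rises in iPS cells over ES cells. Col13a1 (chr10:61233886-61233945) read -0.85 and -0.69 in MEFs, where it was not well above background, and 1.67 and 1.54 in iPS cells. It rose by 1.61 ± 0.061 over ES cells. Col17a1, the hemidesmosome collagen of epithelia, read 0.75 and 0.55 in MEFs and 1.56 and 1.5 in iPS cells. It rose in iPS cells over ES cells (1.53 ± 0.061), and its difference from MEFs, 0.88, was short of 2-fold. Each of these rises rests on a single probe, as the other probe of Col13a1 and that of Col17a1 were not well above background in any RNA. The 2 tested probes of Col23a1 were not called. Of 4 tested transmembrane probes 0 were called in MEFs and 2 rose in iPS cells, and 1 was higher in iPS cells than in MEFs. At an unadjusted p under 0.05 and 2-fold the counts were the same, because here too the 2-fold cut set the calls.

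Probes of a gene often differed in size but not in direction of their calls. Of 19 genes with several tested probes, 4 had probes with and without a call for MEFs against ES cells, 8 for iPS against ES cells and 7 for iPS cells against MEFs, and 0 had opposite calls. The probe nearest the 3′ end had the largest absolute ratio in 14 of the 19 genes in MEFs, in 15 in iPS cells, and in 14 between iPS cells and MEFs. Col8a1, Col4a1, Col4a2, Col22a1 and Col23a1 were the exceptions between iPS cells and MEFs. The upstream probes of Col1a2, Col16a1 and Col6a3 (26846 to 43982 bases away, introns included) lay between -0.32 and -0.69 for iPS cells over MEFs, where the 3′ probes lay between -5.40 and -9.31. The part of probe position in these differences was not tested.

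The enzymes and carriers that make collagen were measured through a list of 28 genes, 26 of them tested, each by its brightest tested probe. In MEFs 15 rose and 0 fell (median 1.16). P3h3, a prolyl 3-hydroxylase, rose by 3.44 ± 0.051, with 3.47 and 3.41 on the arrays. P4ha1, the catalytic subunit of prolyl 4-hydroxylase, rose by 2.78 ± 0.057, Fkbp14, a folding enzyme of the endoplasmic reticulum, by 2.70 ± 0.062 and Sec23a, a coat protein of the vesicles that carry procollagen, by 2.27 ± 0.048. In iPS cells only Tram2, which helps fold type I collagen, rose (1.40 ± 0.050), and 4 fell (median -0.17). These were Fkbp10, a collagen chaperone (-4.02 and -4.04), Bmp1, which cleaves the procollagen C-terminus (-3.16 and -3.25), Creb3l1, an activator of Col1a1 transcription (-1.37 and -1.48), and Plod2, which hydroxylates telopeptide lysines (-1.33 and -1.38). Between iPS cells and MEFs 16 were lower and 0 higher (median -1.65).

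Of 10 collagen receptors 7 were tested. Ddr2, a receptor tyrosine kinase that binds fibrillar collagen, rose in both groups, to 4.75 and 4.87 in MEFs and 2.16 and 2.42 in iPS cells. Ddr1, its epithelial relative, read -0.78 and -0.73 in MEFs and fell to -3.42 and -3.45 in iPS cells. Mrc2, which takes up collagen, read 2.37 and 2.44 in MEFs and -1.84 and -1.83 in iPS cells, and the integrin subunit Itgb1 read 1.72 and 1.79, then -1.79 and -1.80. Itga1, its partner in a collagen-binding integrin, rose in MEFs (1.14 ± 0.053) and was not called in iPS cells (-0.11). In all 4 rose and 0 fell in MEFs (median 1.14), 1 rose and 3 fell in iPS cells (median -0.38), and 5 were lower and 0 higher in iPS cells than in MEFs (median -2.52).

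Markers were read beside these values, to check the labels and to show what other cells could hold collagen RNA. In bulk RNA, fewer cells of a type and less RNA per cell cannot be told apart. All 10 tested of 12 fibroblast markers rose in MEFs, with array medians of 4.40 and 4.50, the defining Thy1 at 4.19 and Prrx1 at 5.87. In iPS cells 0 rose and 6 fell (array medians -1.66 and -1.62), with Thy1 at 0.42 and Prrx1 at -0.78, not called. All 6 tested of 8 pluripotency markers fell in MEFs (array medians -4.47 and -4.28), and in iPS cells 4 rose, among them Nanog (2.27), and 1 fell, Pou5f1 (-1.35). ES RNA was well above background on all 4 arrays for Thy1 and Prrx1, as it was for the 3′ probes of Col1a1 and Col1a2.

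Markers of other cells moved in both directions. Of 11 tested of 12 markers of primitive and parietal endoderm, cells that secrete type IV collagen, 4 rose and 2 fell in MEFs (array medians 0.85 and 0.64) and 1 rose and 4 fell in iPS cells (-0.69 and -0.80). The defining Gata4 was not well above background in any RNA, and Sox17 read -1.34 in MEFs and 0.58 in iPS cells. Of 5 tested chondrocyte markers 1 rose and 1 fell in MEFs and 0 rose and 2 fell in iPS cells, with Matn1 not well above background anywhere and Acan at 0.21 and 0.89. Of 4 tested endothelial markers 1 rose and 1 fell in MEFs and 2 rose and 1 fell in iPS cells, with Cdh5 not well above background anywhere and Pecam1 at -0.43 and 2.09. ES RNA itself was well above background on all 4 arrays for Pecam1. Of 6 macrophage markers 2 rose and 1 fell in MEFs and 0 rose and 2 fell in iPS cells, with Ptprc at 0.25 and -0.15 and Csf1r at 0.93 and -0.05. The largest called rise and fall in MEFs were Thbd (5.88) and Foxa2 (-1.98) among endoderm markers and Sox9 (1.03) and Comp (-1.49) among chondrocyte markers. Among endothelial markers they were Emcn (5.07) and Kdr (-1.54), and among macrophage markers Lyz2 (4.88) and Cd68 (-1.69). The part of such cells in the collagen values was not tested.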

How the data were processed

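Total RNA was measured on 4 Agilent arrays with 2 colours. Per the file headers, the authors scanned at 5 micron, extracted spots in Agilent Feature Extraction 10.5.1.1, and deposited mean and local background intensity of both channels, not normalized. The deposited log10 ratio came from the same software. The series' value table was identical to it (largest difference 0, column medians 0) and served as an alternative. Probe coordinates are on mm8, per the file headers. Intensities were background-corrected with normexp (offset 50, fitted over unmarked spots) and normalized by loess (span 0.3, controls at weight 0) in limma 3.58.1 (R 4.3.3, files read by the data.table package, version 1.17.8). The highest local background of a spot was 694663 on the first MEF array and 75.5 to 78.5 on the others. Marked spots (2.86% to 3.38% of gene spots an array, 0 to 11 of the 99 collagen spots) were left out, 0 collagen spots were saturated, and spots of a probe were averaged.

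A probe was tested if well above background in at least 1 RNA on all of its arrays and with a value on all 4 (27725, then 24874, of 41174). Models were fitted with lmFit and eBayes (1 coefficient per group, 2 residual and 4.91 prior degrees of freedom), with the Benjamini-Hochberg adjusted p under 0.05 and 2-fold as the call. The script was tested on simulated data. MEFs and iPS cells were tested as ratios against 0, which holds the ES cells' spread only between arrays. With no dye swap, the ratios over ES cells keep any dye effect of a probe, which drops out of the contrast of iPS cells with MEFs. Slide position and group cannot be told apart, and precision is limited by the number of arrays. Between replicates, collagen ratios correlated at 0.998 (MEF) and 0.996 (iPS) across tested probes, which are not independent replicates, with a median gap of 0.10 and 0.09 and a largest of 0.42 in each. The standard errors lay between 0.046 and 0.097 over ES cells. Where a probe was dim (not well above background) on all arrays of a group, the text gives a bound (at least N-fold) made of per-channel means, where the dim group enters on each array with the higher of the lowest signal well above background and the probe's own signal. This is open to dye bias. A bound that is above the fitted fold or no different from it at 3 digits is not printed.

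Of the 81 collagen probes, 61 were matched by accession to RefSeq genes, and 0 of these had another symbol. Promoters are from RefSeq (GRCm38.p6, used for names, windows and letters only). Members and gene lists were chosen with earlier results of these data known. All collagen genes could be named; of other lists, the defining markers and at most 4 called members with the largest ratio in a comparison.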

Additional observations from a re-analysis of the deposited data

Results flagged for a closer look

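The following probes were called higher in MEFs and lower in iPS cells, in each case over ES cells. Their difference between iPS cells and MEFs also passed the limma test, but it follows from those calls and adds no support. The probes are given as log2 ratios of iPS cells over MEFs. Among fibrillar chains these were Col1a1 (-10.09 and -6.47), Col1a2 (-9.31), Col3a1 (-8.05), Col5a2 (-6.72), Col11a1 (-4.59) and Col2a1 (-4.08 and -2.28, overlapping probes). Type IV chains were Col4a1 (-3.64), Col4a2 (-3.45 and -3.75) and Col4a5 (-3.29). Other types were Col8a1 (-9.12 and -6.82), Col16a1 (-6.07), Col12a1 (-5.29) and Col7a1 (-4.94). For 4 of these 17 probes iPS RNA was not well above background on either array. Groups of 2 arrays are too small for a test of single outlying arrays.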

How the results depend on the processing

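The counts moved most with the spots used to fit the background correction. Leaving out each array in turn gave 29 to 30 collagen probes higher and 4 lower in MEFs, 4 higher and 18 to 19 lower in iPS cells, and 4 to 5 higher and 31 to 32 lower in iPS cells than in MEFs. Where this leaves a group with 1 array, that array is assumed to vary like the other group. With normexp over all spots 0 were higher and 0 lower in MEFs (11 and 2 at an unadjusted p under 0.05 in limma), 3 higher and 8 lower in iPS cells, and 2 higher and 8 lower between iPS cells and MEFs. That fit without the first MEF array, chosen after seeing the data, gave 29 and 4, 4 and 19, and 4 and 31. With all 4 arrays in that fit, the numbers higher in MEFs were 0 for collagen synthesis and 0 for receptors. The scanner's own log ratio, which has no offset, gave 39 higher and 8 lower in MEFs and 6 higher and 32 lower in iPS cells. Between iPS cells and MEFs it gave 7 higher and 44 lower. More of all 24874 probes were called as well. With that ratio 4884 were higher and 5470 lower in MEFs, 4073 and 4332 in iPS cells, and 6627 and 5859 between them. The 27 probes well above background on every array in red and green alike gave 17 higher and 4 lower in MEFs (fewer probes tested). In iPS cells they gave 2 higher and 13 lower, and between iPS cells and MEFs 3 higher and 17 lower. The mean over a gene's probes gave 19 genes higher and 3 lower in MEFs and 4 higher and 12 lower in iPS cells (fewer features tested). Genes were named there by RefSeq symbol, which gave 38 collagen genes in place of the 36 tested by array name. Of all 17620 genes so formed, 2195 were higher and 2126 lower in MEFs, and 1431 and 1833 in iPS cells.

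Median centring in place of loess moved the median of all probes to 0.16 in MEFs and 0.14 in iPS cells. The share of called probes that were higher, over all probes, went from 50.6% to 70.0% in MEFs and from 42.8% to 61.5% in iPS cells. Of the 23 collagen calls in iPS cells 18 remained, with 14 lower. The median over tested collagen probes ranged over the alternatives from 0.50 to 2.49 in MEFs, from -1.14 to -0.25 in iPS cells and from -3.72 to -0.58 between them.

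The replicate numbers share only a number (the correlation of same-numbered deviations was -0.11). The replicate block gave 29 and 4, 4 and 19, and 4 and 32, as without it, and changed no collagen call. The crossed pairing, added after seeing the data, gave the same counts, 29 and 4, 4 and 19, and 4 and 32.

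Sign changes occurred only in values that were not called under either setting. With normexp over all spots, iPS cells over MEFs read -0.250 for Col22a1 A_51_P145010, -0.103 for Col9a3, 0.140 for Col20a1 and -0.141 for Cd68. With the scanner's log ratio, iPS over ES cells read 0.164 for Col10a1, 0.064 for Col4a6 A_52_P447196 and 0.204 for Csf1r, and Col20a1 read 0.003 between iPS cells and MEFs. With median centring, Col23a1 A_52_P431116 read 0.087 in MEFs, and in iPS cells Col18a1 read 0.095, the Col11a2 probes 0.021 and 0.007, Col4a6 0.128 and Emr1 (Adgre1) -0.009. Leaving out an array of the group, Col23a1 A_52_P431116 read -0.118 to 0.097 in MEFs. In iPS cells Col11a2 A_51_P264666 read -0.154 to 0.004, Col10a1 -0.158 to 0.077, P4ha1 -0.070 to 0.111, Col3a1 A_52_P684242 -0.302 to 0.113 and Emr1 -0.042 to 0.132. The cause of these changes was not tested.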
